A study of Drosophila melanogaster with 24 samples.

Results

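The genes described here encode the proteins of the cytoplasmic ribosome of Drosophila melanogaster. They were taken by symbol: RpL or RpS followed by a digit for the large and small subunit, and RpLP0, RpLP1 and RpLP2 for the stalk. Of the 16727 genes listed in both count tables, 91 met this rule, 53 of the large and 38 of the small subunit. They are called RP genes below. The 24 libraries came from w1118 flies, a white-eyed laboratory strain, and every group carried that genotype. Males and females were kept for 7 days on a regular diet (RD) or on a high fat diet (HFD) made by adding 20% coconut oil to it, and RNA was taken from pooled heads (about 100 a sample) and from pooled bodies without heads (10 a sample by the sample descriptions, 15 by the study's methods). The treatment description, which is the same for every sample, gives an age of 5 to 7 days for the flies put on HFD and no separate age for those on RD. There were 3 libraries for each of the 8 combinations of sex, tissue and diet.

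Each ribosome holds a single copy of nearly every ribosomal protein, so a growing cell makes these proteins in matched amounts, from mRNAs that are among the most abundant in the cell. The RNA core of the ribosome (rRNA) is transcribed separately. In flies most ribosomal proteins are encoded by 1 gene, and mutations that remove a single copy of many of them give the Minute phenotype of short bristles and slow growth. Some have a duplicate gene, and several duplicates are known for expression in the germline. By symbol, 25 of the 91 RP genes fell into 12 groups with the same protein name, and their members are called duplicates below. Among the groups were RpL7, RpL10A, RpL22, RpL24, RpL34, RpL37, RpS10, RpS14, RpS15A, RpS19 and RpS28. A shared name does not show that each gene encodes a ribosomal protein. The yeast counterpart of RpL24-like, for instance, is an assembly factor of the large subunit. The genes lay on chromosome arms 2L (19), 2R (20), 3L (14), 3R (23), 4 (1) and X (14). Their median length was 877 bases, against 1513 for all genes listed, and 22 of them shared exon bases with another protein-coding gene in the annotation, so that part of their reads could be counted for either gene.

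Libraries held between 13373820 and 25703778 counts on genes. The tissue labels held: the summed level of 12 photoreceptor genes was 45638 to 77614 CPM (counts scaled to a common library size) in heads and 101 to 2915 in bodies, the highest body value being male body RD 3. Of these genes, ninaA had no count in any library, heads included. The sum of 13 testis genes was 3972 to 5678 CPM in male bodies. It was at most 48.5 CPM elsewhere, and that value was male head HFD 4. The sum of 13 ovarian and eggshell genes was 2195 to 3664 CPM in female bodies and 559 to 727 in male bodies. The males and females were deposited in separate tables. The rRNA rows took 0.148 to 0.439% of counts in the 12 female libraries and 3.44 to 7.42% in the 12 male libraries. Nearly all of these counts lay on rows named as rRNA pseudogenes. The rRNA share here is the share of counts on these rows and not the whole rRNA content of a library. The rRNA share therefore divided the libraries exactly as sex did, and for every difference between males and females below, sex and rRNA share cannot be told apart. The RNA came from mixed cells, so fewer cells of a type and less RNA per cell cannot be told apart either.

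RP genes took a larger share of the counts in females than in males, and within females a larger share in bodies than in heads. In bodies their summed share ran from 12.4 to 14.4% for the females and from 2.999 to 5.46% for the males. In heads it ran from 6.46 to 8.08% and from 1.39 to 5.62%. None of these ranges overlapped between the sexes of a tissue. In the male heads the order of the libraries by RP share was the exact reverse of their order by rRNA share. RD 1 had 5.62% RP and 3.44% rRNA. HFD 2 followed with 4.27% and 3.71%, RD 3 with 2.83% and 4.25%, RD 2 with 2.46% and 4.97%, and HFD 4 with 2.19% and 5.67%. HFD 3 was last with 1.39% RP and 6.94% rRNA. In the male bodies the RP share was highest in HFD 2, at 5.46% with the lowest rRNA share (3.59%), and lowest in HFD 3, at 2.999% with the highest rRNA share (7.42%). The order was not the reverse of the rRNA order here: RD 1 had 3.14% RP beside an rRNA share of 3.77%, and RD 3 had more of both (4.16% and 4.76%) than RD 2 (3.98% and 4.60%). Leaving the rRNA rows out of the total moved the RP share of male head HFD 3 only to 1.49%. The widest 95% Wilson interval of an RP share was 0.0156 percentage points to either side and covers counting error only.

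**Figure D1:**
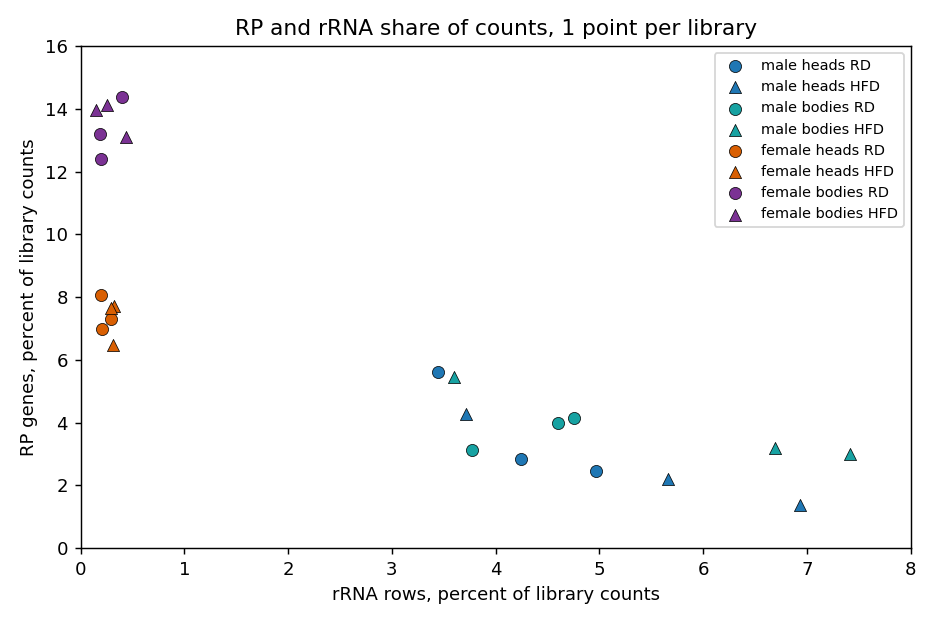
Share of counts on RP genes (vertical axis, percent) against the share on rRNA rows (horizontal axis, percent) in each of the 24 libraries, coloured by sex and tissue, with circles for RD and triangles for HFD. The 12 female points lie at or below 0.439% rRNA and the 12 male points at or above 3.44%, and in the male heads the RP share runs from 5.62% down to 1.39% as the rRNA share runs from 3.44% up to 6.94%.

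The RP genes did not shift as a block between male libraries. A set of them nearly vanished from some male libraries while others kept their level. RpL8, which encodes a conserved large subunit protein near the peptidyl transferase centre (chr3L:2587456-2588883, plus strand, dm6), was the clearest case. It had 720, 25.8 and 69.2 CPM in the RD male heads 1, 2 and 3, and 472, 2.73 and 15.6 CPM in the HFD male heads 2, 3 and 4. These values rest on 11742 counts in male head RD 1 and 32 counts in male head HFD 3. In male bodies it had 38.9, 136 and 187 CPM on RD (replicates 1 to 3) and 694, 11.02 and 21.4 CPM on HFD (replicates 2 to 4). The high and low libraries of either diet overlapped widely. In the 6 female heads the same gene stayed between 550 and 1085 CPM, and in the 6 female bodies between 1286 and 1918 CPM.

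RpL23A, a large subunit protein at the exit tunnel, and RpL13A and RpL34b, both also of the large subunit, behaved alike. RpL23A had 771, 68.3 and 103 CPM in RD male heads and 429, 2.56 and 45.4 CPM in HFD male heads. RpL13A had 677, 25.3 and 55.3 CPM on RD and 316, 10.3 and 16.4 CPM on HFD. In each case RD 1 and HFD 2 were the high libraries and HFD 3 the low one. RpS30, a small subunit protein made as a fusion with a ubiquitin-like domain, ranked the 6 male heads in the same order, with smaller steps above HFD 3. It had 588, 227 and 344 CPM in RD male heads and 537, 8.36 and 202 CPM in HFD male heads.

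Other RP genes showed the opposite. RpL38, a small large-subunit protein, had 397, 587 and 460 CPM in RD male heads and 421, 1315 and 619 CPM in HFD male heads. Its highest value was in HFD 3, the library in which RpL8 was lowest. RpS3A, whose gene is the only RP gene on chromosome 4, had 1229, 1426 and 1225 CPM on RD and 1133, 2235 and 1418 CPM on HFD. RpL5, which binds the 5S rRNA, kept to a range of 1482 to 2068 CPM over the 6 male heads, and RpL41, the shortest ribosomal protein, to 774 to 1132 CPM. RpL8, RpL38, RpL5 and RpL41 all enter the same subunit.

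**Figure D2:**
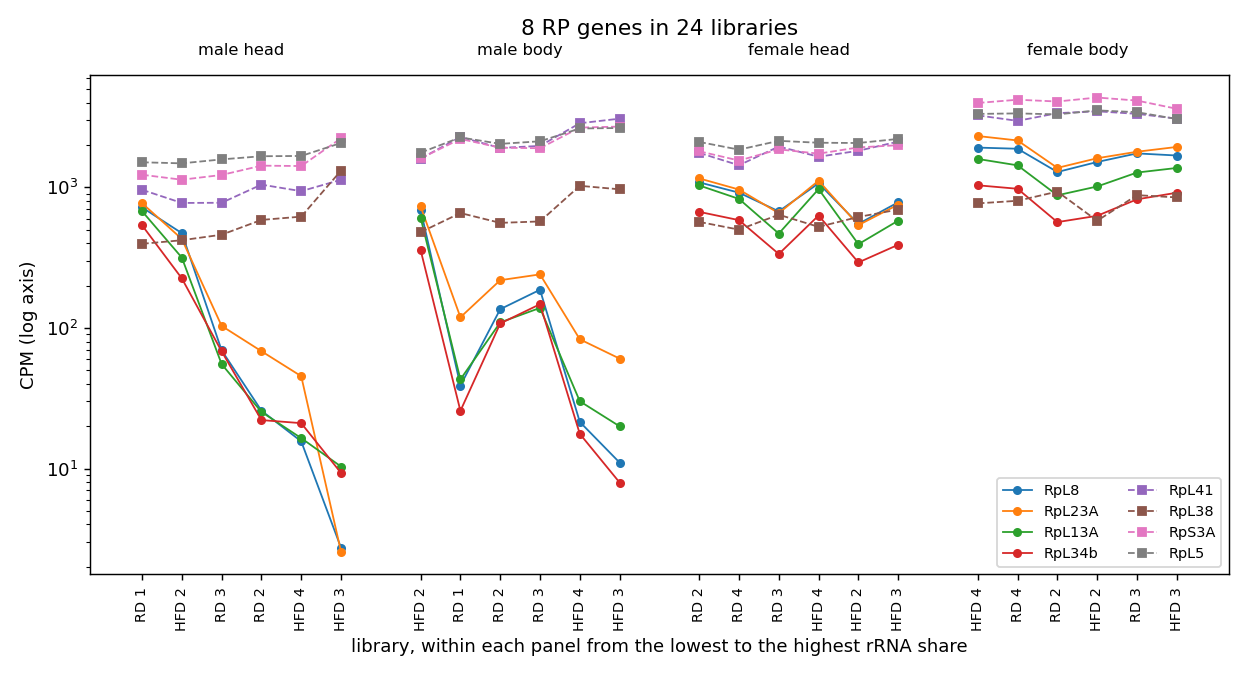
CPM on a log axis of 8 RP genes in all 24 libraries, within each sex and tissue ordered from the lowest to the highest rRNA share. Solid lines show RpL8, RpL23A, RpL13A and RpL34b, and dashed lines RpL41, RpL38, RpS3A and RpL5. In male heads RpL8 goes from 720 to 2.73 CPM while RpL5 stays between 1482 and 2068 CPM, and in female libraries no such gap opens.

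Over the 82 RP genes with a mean of at least 10 CPM in female heads and in female bodies, the ratio of the highest to the lowest of the 6 male heads had a median of 3.53 on the log2 scale (CPM plus 0.5). It ran from 0.33 in RpL21 to 7.98 in RpL23A. The ratio passed 16-fold in 29 of the 82 genes (35.4%), against 1.74% of the 6098 other genes at the same level, and stayed under 2-fold in 11. The highest male head was RD 1 in 73 of the 82 genes and the lowest was HFD 3 in 68. In male bodies the median was 1.51 on the log2 scale, and 4 genes (4.88%) passed 16-fold, against 0.082% of the other genes. In female heads it was 0.42 and in female bodies 0.30, and no RP gene passed 4-fold in either. The median of the other genes was 0.94 in male heads, 0.54 in male bodies, 0.25 in female heads and 0.34 in female bodies.

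The same RP genes were low in both tissues of the males. For each sex and tissue the library with the highest rRNA share was set over the one with the lowest. In male heads this ratio, HFD 3 over RD 1, had a median of -3.53 on the log2 scale over the 82 genes, from -7.98 (RpL23A) to 1.73 (RpL38). In male bodies, HFD 3 over HFD 2, the median was -1.49, from -5.91 (RpL8) to 1.01 (RpL38). The 2 ratios share no library, although both have HFD replicate 3 as the numerator, and equally numbered HFD heads and bodies were taken as pairs. Across the 82 genes their Pearson r was 0.85 and their Spearman rho 0.85. Across the 6098 other genes r was 0.84, so the other genes kept a like order between the tissues. The median of the other genes in male heads was -0.25, against -3.53 for the RP genes. In female heads (HFD 3 over RD 2) the ratio was small, with a median of -0.05 and a lowest value of -1.25, and its r with the male heads was 0.51, against 0.35 for the other genes. In female bodies (HFD 3 over HFD 4) r with the male heads was 0.28, against 0.18 for the other genes, and with the male bodies 0.12, against 0.19. These correlations are across genes, which are not independent replicates, and the genes of one library share its depth and composition.

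**Figure D3:**
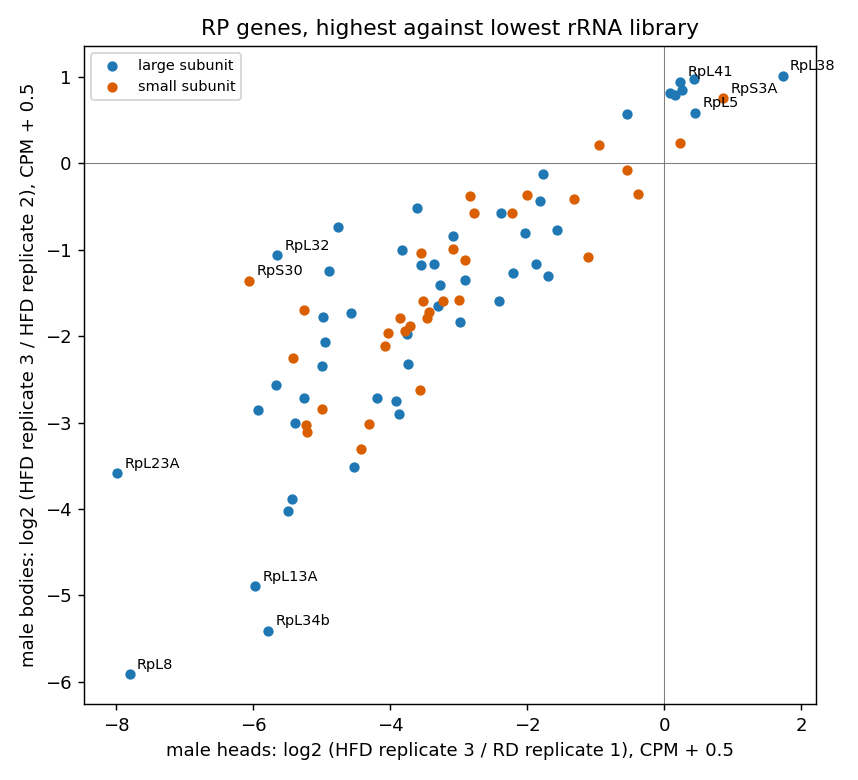
Log2 ratio of each of 82 RP genes between the male library with the highest and the one with the lowest rRNA share, in heads (horizontal axis) and in bodies (vertical axis), 1 point per gene, coloured by subunit. The points run from RpL8 and RpL23A at the lower left to RpL38 and RpS3A at the upper right, with r = 0.85.

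The drop was seen in both subunits and in short and long genes. The male head ratio had a median of -3.61 in 49 large subunit genes and -3.46 in 33 small subunit genes. It was -3.55 in the 49 genes under 1000 bases and -3.46 in the 33 longer ones. A ratio above -1 was found in 13 genes (15.9%), against 70.2% of the 6098 other genes. These 13 were RpL5, RpL10, RpL15, RpL21, RpL37A, RpL38, RpL39, RpL41, RpS3A, RpS15Aa, RpS15Ab, RpS27A and RpS29. The genes just below that limit were RpS27 at -1.11 and RpS28b at -1.32. Several other measures moved with this drop beside the rRNA share. In male heads the mean gene length, weighted by counts, was 4143 bases in RD 1 and 5514 in HFD 3, against 4075 to 4305 in female heads. The sum of 7 head cuticle and antenna genes was 425 and 399 CPM in male heads RD 1 and HFD 2, 130 to 232 CPM in RD 2, RD 3 and HFD 4, and 99.6 CPM in HFD 3. In male bodies the sum of 8 midgut genes was 6158 CPM in HFD 2, 2624 in RD 2, 1733 in RD 3, 985 in RD 1, 839 in HFD 3 and 593 in HFD 4. The part of these measures and of the rRNA share in the drop was not tested.

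No RP gene passed the test for a change on HFD in any sex or tissue. In edgeR's quasi-likelihood test with Benjamini-Hochberg adjustment over all genes tested, 0 of 82 RP genes in male heads, 0 of 90 in male bodies, 0 of 83 in female heads and 0 of 85 in female bodies passed 0.05. The share of all genes called was 0.0%, 0.0%, 0.00983% and 0.0%, so the RP genes were at the background. DESeq2 and limma-voom also called 0 in all 4. At an unadjusted p under 0.05 edgeR gave 0, 4, 0 and 0 RP genes, and the share of all genes there was 1.42%, 3.79%, 2.76% and 3.48%. The median log2 fold change of the RP genes, HFD over RD, was -0.58 in male heads, 0.09 in male bodies, -0.03 in female heads and 0.05 in female bodies. The median of all genes lay between -0.02 and 0.03 in these comparisons.

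The male head median rested on single libraries. It was -1.69 without HFD 2, -0.13 without HFD 3 and 0.13 without RD 1. Without RD 1 and HFD 2 together, the libraries with the lowest rRNA shares, it was -1.06. In male bodies it was -0.61 without HFD 2 (with 66 of 90 genes and 34.9% of all genes at an unadjusted p under 0.05 and none called) and 0.30 without HFD 3. The female medians stayed between -0.08 and 0.13 when any one library was left out. In male heads the RD and HFD libraries overlapped for every one of the 82 RP genes, where 2.53% of all genes were higher and 4.36% lower on HFD without overlap.

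In male bodies 4 of the 90 tested RP genes (4.44%) were higher in all 3 HFD than in all 3 RD libraries, against 2.87% of all genes tested, and 1 (RpS15Aa) was lower without overlap, against 5.95%. These shares are near the background. RpL24-like, whose yeast counterpart is an assembly factor of the large subunit, had 45.5, 49.0 and 60.0 CPM on RD against 113, 65.9 and 69.0 CPM on HFD. The log2 fold change of 0.70 had an adjusted p by edgeR of 0.94. RpS19b, a duplicate of the RpS19 gene, had 50.5, 53.4 and 56.8 CPM on HFD and 48.0, 39.0 and 44.7 CPM on RD. RpL37A and RpS27A, the latter a fusion of ubiquitin with a small subunit protein, were the others, and none was called. The interaction of sex and diet called 0 of 83 RP genes in heads and 0 of 90 in bodies by edgeR, where 0 and 1 had an unadjusted p under 0.05, and 0 in both by DESeq2. Of all genes tested, 0.0% were called in either tissue, and 1.24% in heads and 3.18% in bodies had an unadjusted p under 0.05.

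In bodies, males had lower levels of nearly every RP gene. On RD 90 of 90 tested RP genes were called, 83 lower and 7 higher in males, with a median log2 fold change of -1.86, male over female. Of all genes, 84.4% were called in this comparison (35.1% lower and 49.3% higher), with a median of 0.40, so a call alone does not mark the RP genes. On HFD 83 of 90 were called, 76 lower and 7 higher, with a median of -1.90, against 75.6% of all genes (32.4% lower and 43.1% higher). All 90 calls on RD were kept in all 15 alternative fits, and 65 on HFD. Another scaling, by DESeq2's size factors, moved the median of all genes to 0.46 on RD and 0.40 on HFD, and that of the RP genes to -1.81 and -1.78. RpL8 had a log2 fold change of -3.85 ± 0.51 (SE, adjusted p by edgeR 6.76e-05) on RD and RpL13A of -3.71 ± 0.42 (2.15e-05). RpL38, RpL39 and RpL41 were nearer to the females, at -0.65, -0.51 and -0.75. The rRNA share moved with this comparison (3.59 to 7.42% in male bodies), and its part was not tested.

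In heads the same direction was seen with few calls. On RD all 83 tested RP genes had lower values in males, with a median of -1.21, but only 7 were called (RpS4, RpS20, RpL9, RpL41, RpS15Aa, RpL10 and RpL15), against 7.76% of all genes (4.35% lower). The values did not overlap between the sexes in 60 of the 83 genes, against 18.8% of all genes. RpS15Aa, a small subunit protein, had the smallest adjusted p (0.0214 by edgeR), with a log2 fold change of -0.84 ± 0.14 (SE). Of the 7, RpL10, RpL15, RpL41 and RpS15Aa were among the 13 genes named above for a male head ratio over -1. The fat body sum (8 genes) moved with this comparison. It was 6454 to 9747 CPM in the 6 female heads and 123 to 252 CPM in the 6 male heads. Of 7 tested genes, 5 were lower and 1 higher in males on RD. The list was drawn up with the yolk protein genes Yp1, Yp2 and Yp3 in it, so the sum does not measure fat body alone. The part of this sum was not tested. Male head RD 1 decided the count: without it 80 RP genes were called with a median of -1.84, against 49.2% of all genes. Without any one of the other 5 libraries none were, and 29 to 41 had an unadjusted p under 0.05, against 17.3 to 21.9% of all genes. With every library 55 did, against 29.7%. DESeq2 called 46, against 16.2% of all genes. On HFD 0 of 83 were called by edgeR (1.78% of all genes were), 36 had an unadjusted p under 0.05 (25.3% of all genes did), and the median was -1.77. DESeq2 called 26 there, against 10.7% of all genes, and limma-voom 3, against 2.36%. Without male head HFD 2, 69 were called, with a median of -2.84, against 41.3% of all genes. In both diets the median of all genes was -0.01.

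The difference was seen in RP genes of middle length and on the X as well as on the autosomes. In 41 RP genes from 600 to under 1000 bases the median on RD was -1.24, and in 1104 other genes of that length it was 0.06. For RP genes on the X the median was -1.15 in heads and -1.91 in bodies, and for those on the autosomes -1.23 and -1.79.

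**Figure D4:**
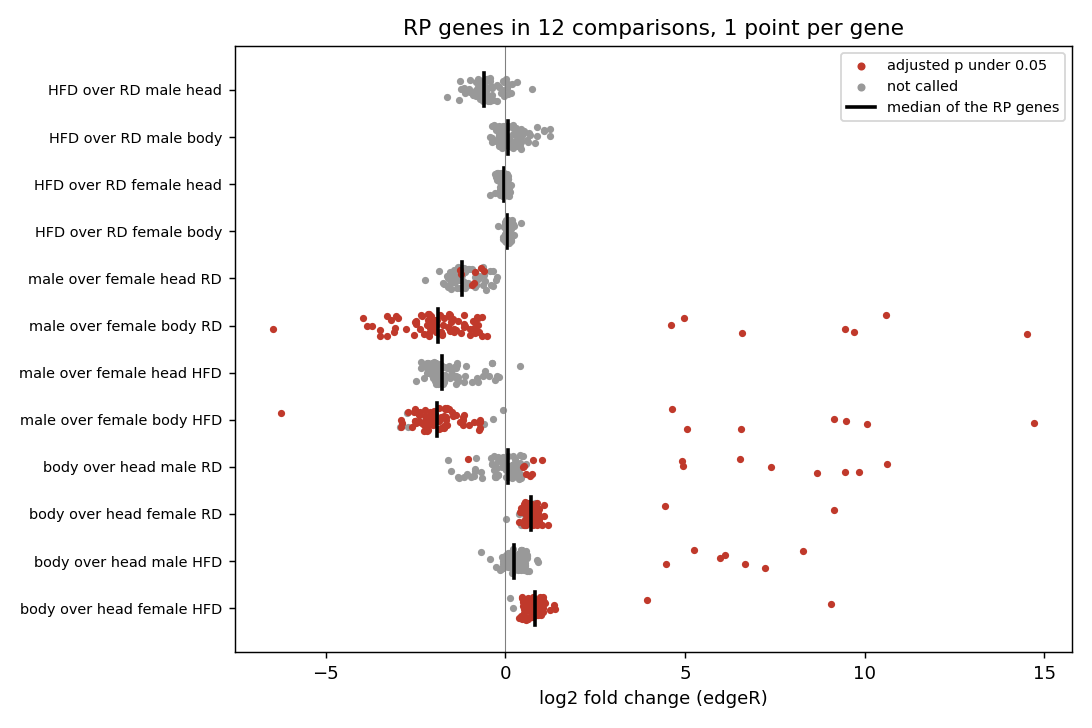
Log2 fold changes of the RP genes in 12 comparisons (edgeR), 1 point per gene, red where the adjusted p was under 0.05, with a bar at the median. The diet rows hold no red point, the male over female rows lie below 0 except for 7 duplicate genes in bodies and RpL38 in HFD heads, at 0.42, and body over head rows of females are nearly all red and above 0.

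The 7 genes that were higher in male bodies were all duplicates. They were called on both diets: RpL10Aa, RpL22-like, RpL37b, RpS10a, RpS19b, RpS28-like and RpS28a. None of them lies on the X, while 5 of the 6 genes they pair with do (RpL22, RpL37a, RpS10b, RpS19a and RpS28b, with RpL10Ab on 3L). Of the 25 genes in duplicate groups, 9 lie on the X. Not every autosomal duplicate of an X gene was higher in male bodies. RpS15Ab on 2R, the duplicate of RpS15Aa on the X, was lower there on both diets. They were near 0 in heads of both sexes, as were the testis genes. RpL10Aa (chr3R:15037366-15038149, plus strand, dm6) had 199, 129 and 147 CPM in RD male bodies and 130, 235 and 238 CPM in HFD male bodies. Not a single count was seen for it in the 12 female libraries. Against a floor of 3 counts over the 3 female body libraries of a diet, it was at least 2865-fold higher in male bodies on RD and at least 3179-fold higher on HFD.

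RpL22-like, a duplicate of RpL22 known from the male germline, had 65.4, 55.9 and 65.4 CPM in RD male bodies and 54.4, 49.9 and 62.2 CPM in HFD male bodies. Female bodies held 2 counts of it on RD and 4 on HFD. The ratio of male to female bodies on RD was 1686, with a 95% counting interval from 466 to 13928. RpS19b (chr3R:23932729-23933530, minus strand) had 39.0 to 48.0 CPM in RD male bodies and 1.11 to 1.505 CPM in RD female bodies, a log2 fold change of 4.96 ± 0.17 (SE, adjusted p by edgeR 5.72e-09). RpS28-like had 16.7 to 23.4 CPM in RD male bodies and 1 count in the 3 RD female bodies. It shares exon bases with CG3769. RpS10a had 9.35 to 14.9 CPM and RpL37b 4.76 to 9.18 CPM in RD male bodies, against at most 0.665 and 0.0971 CPM in RD female bodies. RpS28a was the lowest, with 2.01 to 7.13 CPM, and no count in female bodies. It was at least 84.5-fold higher in male bodies on RD.

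These duplicates varied less between male bodies than the RP genes at large, with RpS28a the exception. RpS28a had 8.78 CPM in male body HFD 2 and 0.723 CPM in HFD 3. RpL10Aa and RpS28-like were higher in HFD 3 and HFD 4 than in HFD 2, whereas RpL37b and RpS10a were highest in HFD 2. Male head HFD 4, the head with the highest testis sum (48.5 CPM), was also the male head with the highest RpL10Aa (1.24 CPM), RpS19b (0.848 CPM), RpS28-like (0.587 CPM) and RpL22-like (0.522 CPM).

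**Figure D5:**
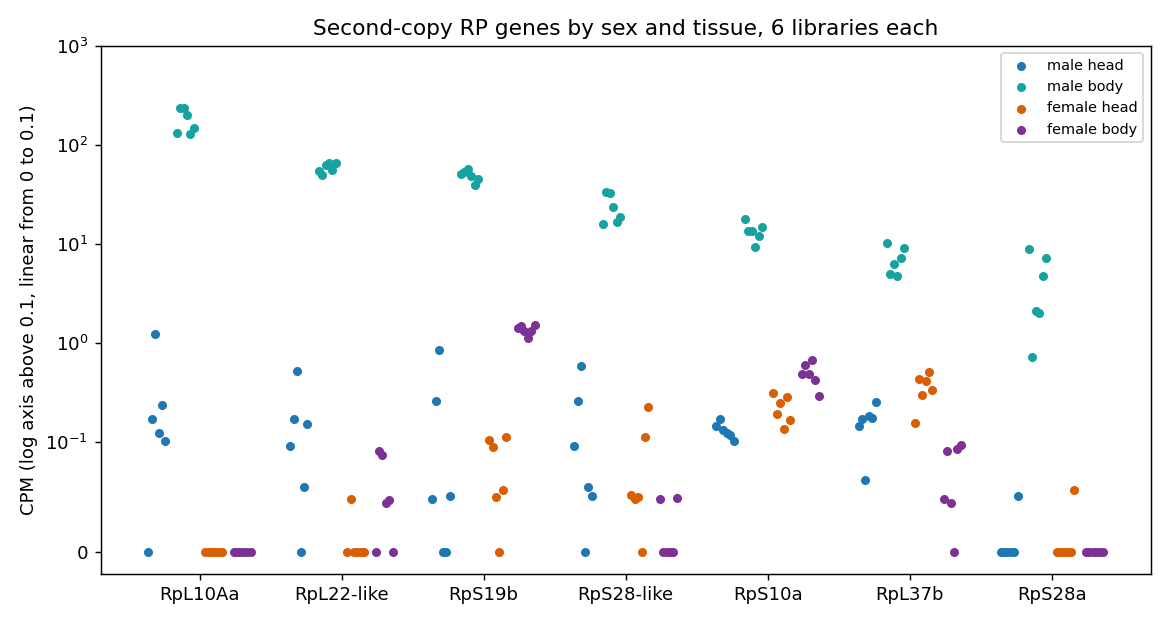
CPM of 7 duplicate RP genes in male heads, male bodies, female heads and female bodies, 6 points each, on an axis that is logarithmic above 0.1 CPM and linear from 0 to 0.1. All 7 are highest in male bodies, where RpL10Aa reaches 238 CPM while it is at 0 in every female library.

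In the RpL24, RpS14, RpS15A and RpL34 groups both genes were seen in every sex and tissue. RpL24-like made up 24.9 to 46.3% of the RpL24 group per kilobase, RpS14b 21.3 to 28.8% of the RpS14 pair and RpS15Ab 4.9 to 8.5% of the RpS15A pair, as group means. RpS14a and RpS14b are adjacent near-copies, so reads could be split between them in either way, and the same holds for other close duplicates. In the RpL34 pair the balance varied between male libraries. RpL34b made up 60.3 to 78.0% of the pair in the 12 female libraries and 24.3 to 74.0% in the 12 male libraries, so the ranges overlapped. Male head RD 1 (74.0%), male head HFD 3 (68.9%) and male body HFD 2 (68.2%) lay inside the female range, and male body HFD 3 (24.3%) was the lowest. RpL7-like had at most 3 counts in any library and was filtered out everywhere. It shares exon bases with CG34164, and how reads that fit both genes were counted is not known. Its low counts therefore need not mean low expression. In male bodies RpL10Aa made up 16.7% of the RpL10A pair on RD and 26.7% on HFD, RpL22-like 35.5% and 37.3%, and RpS19b 23.6% and 29.7%. Such a share depends on the level of the partner too, and RpL22 and RpS19a were lower in male bodies than in female bodies.

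Bodies had higher RP levels than heads in females. On RD 78 of 84 tested genes were called and all 78 were higher in bodies, with a median log2 fold change of 0.72. On HFD it was 83 of 85, all higher, with a median of 0.83. Of all genes 86.9% were called on RD (45.5% higher) and 85.3% on HFD (44.7% higher), with medians of 0.10 and 0.08. Among the larger differences on RD were those of RpS19b (4.44 ± 0.56, SE) and RpS3A (1.20 ± 0.10, adjusted p by edgeR 6.94e-06).

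In males fewer genes were called. On RD 16 of 90 were called, 15 higher and 1 lower in bodies, with a median of 0.07, against 73.5% of all genes (42.8% higher and 30.7% lower). On HFD 7 of 89 were called, all higher, with a median of 0.25, against 63.3% of all genes (34.0% higher), and with the replicate number as a block 12 were. The median of all genes on HFD was -0.03, and 0.17 by DESeq2, where 11 were called. Of the 15 on RD, 8 were duplicates at or near 0 in male heads. The others were RpL10, RpL39, RpL41, RpS3A, RpS15Aa, RpS20 and RpS29, at 0.51 to 1.02, of which RpL41 had 1907 to 2283 CPM in RD male bodies and 777 to 1046 CPM in RD male heads. RpL24-like was lower in bodies, at -1.03 ± 0.38 (SE, adjusted p by edgeR 0.0387). Without male head RD 1, 47 were called on RD, and without male head HFD 2, 19 on HFD.

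The body to head ratio of 39 of 90 RP genes differed between the sexes on RD by the interaction term, 34 with a lower ratio in males and 5 with a higher one, against 65.1% of all genes (34.2% lower and 30.9% higher). The median interaction was -0.996 for the RP genes and 0.13 for all genes. This count depended on the scaling: with DESeq2's size factors inside edgeR 8 were called, 3 lower and 5 higher in males, and by DESeq2 itself 11, 4 lower and 7 higher. There the median of all genes was 0.69 and that of the RP genes -0.46, so the RP genes stayed below all genes by a like amount. RpL24-like, RpS3A, RpL37b, RpS10a and RpS28-like were called in all 22 fits. RpL24-like, for instance, had an interaction of -2.29 ± 0.37 (SE, adjusted p by edgeR 0.000143), with 217 to 255 CPM in female bodies against 110 to 136 CPM in female heads on RD, and 45.5 to 60.0 CPM in male bodies against 59.5 to 160 CPM in male heads.

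Levels of different genes can be compared only per length. In CPM per kilobase, RpL41 had the highest level in each sex and tissue, with a median over 6 libraries of 2969 in the heads of males and 5593 in those of females, and of 6649 in bodies of males and 10287 in bodies of females. RpL39, another very short protein of the large subunit, followed in each, at 1660, 2249, 2853 and 3587. The median RP gene had 195, 880, 347 and 1575 CPM per kilobase, in the same order. The lowest were duplicates. RpL7-like and RpS28a had a median of 0 in heads of both sexes and in female bodies. In male bodies RpL7-like had a median of 0.053 CPM per kilobase and RpS28a 11.2. The values of RpL7-like are limited by the exon bases it shares with CG34164.

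Other genes of translation were described for comparison. Of the 3 genes of the cytoplasmic ribosome outside the symbol rule (sta, which encodes the small subunit protein SA, Rack1 and RpLP0-like), none was called in heads on RD, with a median of -1.38, male over female, and all 3 were lower in male bodies, with a median of -2.29. The mitochondrial ribosome, built from a separate set of proteins, was near the median of all genes in heads: 1 of 72 genes was called there on RD, higher in males, with a median of -0.11. In bodies 67 of 72 were lower in males, with a median of -1.17. The counts of these lists stand beside 4.35% of all genes lower in RD male heads, 35.1% lower in RD male bodies and 45.5% higher in RD female bodies than heads. Of 28 tested initiation factor genes, 5 were lower in male heads, and of 31, 21 were lower and 7 higher in male bodies. Of 7 elongation factor genes, 4 were lower in male heads and 6 in male bodies. Ef1alpha100E was the one higher in male bodies (log2 fold change 2.01), and Ef1alpha48D was lower in male heads (-1.27). Of 39 genes of ribosome biogenesis, which process rRNA and assemble the subunits in the nucleolus, 39 were higher in female bodies than in female heads on RD, with a median of 2.22, and 38 were lower in male than in female bodies, with a median of -2.42. In RD heads 4 of the 39 were lower in males. Of 19 genes of TOR and Myc signalling, which acts on the output of RP genes, 2 were lower in male heads and 15 in male bodies, with medians of -0.16 and -0.68. That list was not sorted by direction of action, so its counts and medians do not measure the output of the signalling. None of the genes in these lists was called between HFD and RD in either sex or tissue.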

How the data were processed

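The authors deposited 2 tables, one per sex, of raw read counts for 16727 genes in 24 libraries. By the study's methods, mRNA libraries from a stranded TruSeq kit were sequenced as paired reads and aligned with TopHat, and a mouse annotation is named for the gene models. The submitters' processing notes name featureCounts and dm6. Whether counting used strand is not given in the sources used here, nor is the treatment of reads that fit several genes, so overlapping genes and near-identical duplicates are uncertain. Nothing states the relation of replicates beyond separate RNA pools, and p-values measure the spread between these.

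RP genes were taken by symbol (89 matched FlyBase identifiers by symbol and 2 by synonym), with positions from Ensembl release 115 (BDGP6.54, the dm6 assembly). rRNA rows were 101 whose symbol holds rRNA, nearly without counts, and 6 listed by CR number whose current name holds it, added after seeing the files. Nearly all rRNA counts fell on pseudogene rows among these 6, chiefly 18SrRNA-Psi:CR41602 with 8613144 counts over all libraries. The row 18SrRNA:CR41548 had 0. Members and lists were chosen with earlier results of these data known.

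Counts were tested with edgeR 4.0.16 in R 4.3.3: filterByExpr (minimum count 10, total 15), TMM, glmQLFit and glmQLFTest, Benjamini-Hochberg over all genes tested, threshold 0.05. The SE is the log2 fold change divided by the square root of F. CPM were scaled by TMM over all 24 libraries. Alternatives were DESeq2 1.42.0, limma-voom 3.58.1, other scalings (RLE, total counts, rRNA rows removed, TMM without RP genes), other filters (at least 1 count, mean CPM of at least 1), the replicate number as a block and each library left out. Named genes were those called in an interaction, the largest changes per comparison, duplicates, and the extremes of level and range. Others were chosen after their values were seen, among them the genes of the drop in male libraries. The fits were also run on simulated counts, drawn independently for each gene. That simulation held no shift shared by many genes of a library, so it does not bear on the RP counts here. Heads and bodies were taken from the same tubes of flies by the methods, which do not say that equal replicate numbers mark one tube. Deviations of equally numbered head and body libraries from group means correlated with r over 0.1 for all 3 pairs only on HFD. The values were 0.76, 0.62 and 0.29 in males and 0.12, 0.16 and 0.20 in females. In males on RD they were -0.49, -0.30 and -0.05. Unequal numbers also gave high values, 0.51 for male head RD 2 with body RD 1 and 0.45 for male head HFD 3 with body HFD 4. The pairing was thus read from these same data. Depth was 13373820 to 25703778 counts. Floors are 3 counts, and intervals are 95%, by Wilson for shares and exact for ratios of counts. Promoter and protein sequences were not analysed here, and 1 pair of duplicates that the counts include is not reported by name.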

Additional observations from a re-analysis of the deposited data

Results flagged for a closer look

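On RD the body to head ratio differed between the sexes in 39 of 90 RP genes by the interaction term of edgeR. Of these, 34 were lower and 5 higher in males. Of all genes 65.1% were called (34.2% lower and 30.9% higher), so a call alone does not mark the RP genes. The 5 higher were RpS28-like (log2 interaction 10.68), RpS28a (9.02), RpL37b (7.19), RpS19b (5.85) and RpS10a (4.95). RpS28a had no count in RD female bodies, and the others had few counts in some groups. These values therefore depend on the prior count and are not bounds. Among the 34 lower were RpL24-like (-2.29) and RpL17 (-2.27). All 7 stood out because the difference between the sexes was itself tested. The testis and ovarian marker sums moved with these groups (3972 to 5678 CPM and 2195 to 3664 CPM in male and female bodies), and their part was not tested. With 3 libraries in each group, no test for a library far from its group was run.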

How the results depend on the processing

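All 0 counts for HFD against RD and for the interaction of sex and diet stayed 0 in every alternative run. The count for male over female bodies on RD stayed at 90 in every one. For male over female heads on RD (7 called), DESeq2 gave 46, the replicate block 79, and leaving out single libraries 0 to 80. The 79 is not separate from the 80, which came without male head RD 1. No female head on RD shared the replicate number of that library, so the block term fitted it alone. The same held for a female head whose number no male head on RD shared. For male over female heads on HFD (0 called), DESeq2 gave 26, limma-voom 3, and single libraries left out 0 to 69. For body over head in males, leaving out single libraries gave 12 to 47 on RD (16 called) and 7 to 19 on HFD (7 called), where DESeq2 gave 11, a filter of at least 1 count 11, and the replicate block 12. For the interaction of sex and tissue (39 called), RLE size factors gave 8, TMM without RP genes 8, DESeq2 11, total counts only 18, rRNA rows removed 24, at least 1 count 23, the replicate block 23, and single libraries left out 7 to 74. The lowest counts, 7, came without any one female body RD library, and 74 without male head RD 2. In that interaction RpS15Aa (-0.52) reversed to 0.030 with DESeq2 and 0.030 with RLE and ran from -0.58 (without female head RD replicate 3) to 0.012 (without female body RD replicate 3), and RpS29 reversed to 0.021 with DESeq2 and 0.021 with RLE, with the median of all genes moving from 0.13 to 0.69 under RLE. No other cause was tested. Of the values of single named genes under the alternatives, 3915 kept direction and call, 481 lost the call and 5 reversed. Only HFD heads and HFD bodies of equal replicate number were taken as pairs. No main fit used a block, and the block fits of all comparisons are alternatives only.

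Depth limits the duplicates with few counts: 3 counts over the 3 libraries of a group correspond to 0.0497 CPM in RD female bodies and 0.0540 CPM in RD female heads.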
